A study of Homo sapiens with 6 samples.

Results

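The RNAs described here are the genes named LINC, the symbol given to long intergenic noncoding RNAs. Members were chosen by name and by level: the symbol starts with LINC followed by digits, and the mean raw count over the 6 samples is at least 20. This gave 141 members out of 1886 rows with a LINC symbol and 58735 rows in all. The mean count was used to choose them, so their levels are given as a description.

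Long intergenic noncoding RNAs are transcribed by RNA polymerase II, usually spliced and polyadenylated, and are not known to be translated into a long protein. Some act on genes near their own locus, others bind proteins or microRNAs elsewhere in the cell, and for most no function is known. Their expression is often low and restricted to particular tissues, and several have been studied in cancer, including sarcomas.

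RNA was measured in RD cells, an established human cell line from an embryonal rhabdomyosarcoma, a tumor of cells that express muscle regulatory factors. RD cells expressed either a scrambled control shRNA (n = 3) or a shRNA against TAK1 (n = 3), each delivered with lentivirus made from the pLKO.1-mCherry-Puro vector. TAK1 is the kinase encoded by MAP3K7, and the comparison asks which transcripts change when it is silenced. RNA-seq was done with a single TAK1 shRNA sequence, so effects of losing TAK1 and effects of that shRNA on other transcripts cannot be told apart. Poly(A)-enriched RNA was sequenced, so transcripts without a poly(A) tail are not covered. It is not stated whether the samples of a group came from separate transductions, so the p-values measure only the spread between these samples. Less RNA per cell and fewer cells of a kind cannot be told apart in such bulk samples.

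Total counts were 29125436, 31886885 and 31334733 in the scrambled shRNA samples and 28839898, 34469323 and 32710522 in the TAK1 shRNA samples. Levels are given as CPM, counts scaled to a common library size with the trimmed mean of M-values. MAP3K7 was at 77.9, 76.5 and 77.6 CPM with scrambled shRNA and at 30.5, 33.6 and 29.9 CPM with TAK1 shRNA. The TAK1 shRNA samples were all lower, with a log2 fold change of -1.30 (SE 0.06) and an adjusted p of 4.45e-14 by edgeR's quasi-likelihood test, adjusted with the Benjamini-Hochberg method over 15935 genes. The muscle and rhabdomyosarcoma markers MYOD1, MYOG, DES, FGFR4 and PAX7 were expressed, with mean levels from 129.8 CPM (PAX7) to 383.6 CPM (FGFR4) with scrambled shRNA, and MYF5 had a count of 0 in every sample. Among these markers MYOD1 (log2 fold change 0.37, SE 0.05, adjusted p 8.16e-07) and MYOG (0.27, SE 0.05, adjusted p 0.000153) were higher with TAK1 shRNA. FGFR4 was lower in every TAK1 shRNA sample, with a log2 fold change of -0.16 (SE 0.05, adjusted p 0.0143) that was under the fold threshold of 0.25, and DES and PAX7 did not pass the test. Markers of leukocytes (PTPRC, CD68), endothelium (PECAM1, CDH5) and liver (ALB) were at or near 0, as were EPCAM and CDH1, while KRT8 was at 3.74 ± 0.65 CPM with scrambled shRNA and 2.67 ± 0.50 CPM with TAK1 shRNA (SD, n = 3), with an adjusted p of 0.059.

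LINC members made up a small share of the RNA. They held between 0.0938% and 0.1036% of all counts in a sample, and at least 94.78% of the counts on rows with a LINC symbol. Of the 1886 LINC rows, 1219 had no count in any sample. Mean counts of the members ran from 20.5 to 1984, with a median of 70.3, and 25 members reached a mean of 10 CPM. The summed level of the members was 960.5, 982.6 and 983.4 CPM with scrambled shRNA and 941.2, 1011 and 962.6 CPM with TAK1 shRNA. The groups overlapped in this sum, which differed by less than the spread between the TAK1 shRNA samples (means 975.5 and 971.5 CPM, SD 13.0 and 35.5).

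The threshold of 20 counts cut through a continuous range of low levels. LINC01144, LINC01126 and LINC01023, the lowest members, each had a mean count of 20.5. LINC01106, LINC00242 and LINC02166 lay just outside at a mean count of 19.8. Single samples of these 6 genes ranged from 9 to 31 counts, so that samples on either side of the threshold overlapped fully.

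To set the members beside the rest of the transcriptome, a gene was called when its adjusted p was under 0.05 and its absolute log2 fold change at least 0.25. All 141 members passed the filter on low counts. With TAK1 shRNA, 18 members were higher (12.8%), where 11.8% of all genes tested were higher. A further 10 members were lower (7.09%), where 11.3% of all genes tested were lower. The share of members called higher was thus near that of all genes, and the share called lower was smaller, but most members have fewer counts than most genes, and among all genes the share called lower was 2.93% from 20 to below 50 counts and 15.6% at 500 counts or more. In 32 members (22.7%) every TAK1 shRNA sample lay above every scrambled shRNA sample, where 21.6% of all genes tested did. In 14 members (9.93%) every TAK1 shRNA sample lay below, where 22.2% of all genes tested did. This share too differed with the count, at 7.52% of all genes from 20 to below 50 counts, 12.1% from 50 to below 200 and 32% at 500 or more. Among all genes, scaling by library size alone moved the split from 1879 higher and 1805 lower to 2376 higher and 1404 lower. In the members the same change of scaling gave 21 higher and 9 lower.

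The median log2 fold change of the members was 0.11, with quartiles of -0.11 and 0.33, and 90 members (63.8%) had a value above 0. Over all genes tested the median was 0.02 and 52.5% were above 0. Other annotated long noncoding RNAs with a mean count of at least 20 (474 genes) had a median of 0.15, with 52 called higher and 13 called lower. Protein-coding genes at that level (12341 genes) had a median of 0.00 in 2 decimals, with 1626 higher and 1701 lower. All genes with low counts had a positive median as well. From 20 to below 50 counts the median was 0.13 over all genes tested and 0.16 over the members, from 50 to below 200 counts it was 0.11 and 0.09, and from 200 to below 500 counts 0.06 and 0.06. In these ranges more of all genes were also called higher than lower (99 and 49, 325 and 152, 418 and 230). At 500 counts or more the medians were -0.02 over all genes and 0.10 over the 18 members. Leaving out TAK1 shRNA replicate 2 lowered the members' median to 0.04, and leaving out scrambled shRNA replicate 3 left 6 members called lower.

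**Figure D1:**
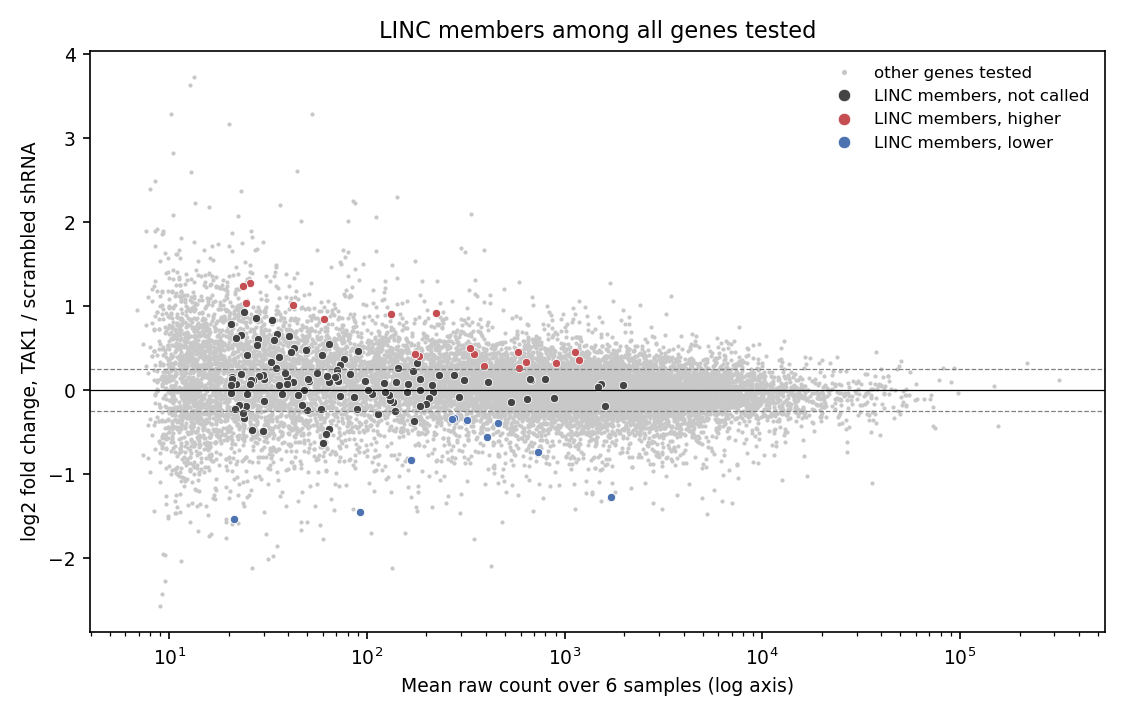
Log2 fold change (TAK1 shRNA over scrambled shRNA, n = 3 each) against the mean raw count over 6 samples, on a log axis, for all 15935 genes tested. Grey points are other genes, dark points LINC members that were not called, red and blue points the 18 members called higher and the 10 called lower, most of them at lower counts than the median gene (630.8 counts); dashed lines mark log2 fold changes of 0.25 and -0.25.

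Calls were less frequent among members with low counts, and the cause was not tested. The members' median SE of the log2 fold change was 0.22, compared with 0.09 over all genes tested, whose median mean count was 630.8. Members with mean counts from 20 to below 50 (56 genes) had a median SE of 0.36, and 5 of them (8.93%) were called, as were 8.84% of all genes in that range. Of these, LINC01355, LINC00954, LINC02367 and LINC02285 reached the mean count of 20 only through the group where they were higher. This share therefore depends on how members were chosen and is given as a description. From 50 to below 200 counts, 6 of 50 members (12.0%) were called, against 22.5% of all genes in the range. The median SE there was 0.193 for members and 0.187 for all genes. Above that, 9 of 17 members from 200 to below 500 counts (52.9%) and 8 of 18 members with 500 counts or more (44.4%) were called, where the shares of all genes were 33.5% and 26.9%. The counts of members in the upper ranges are small, and these shares were not tested. At the highest counts the direction was uneven, with 6 members higher and 2 lower, whereas 977 of all genes in that range were higher and 1345 lower. From 200 to below 500 counts it went the other way, with 4 members higher and 5 lower, and 418 of all genes higher and 230 lower.

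**Figure D2:**
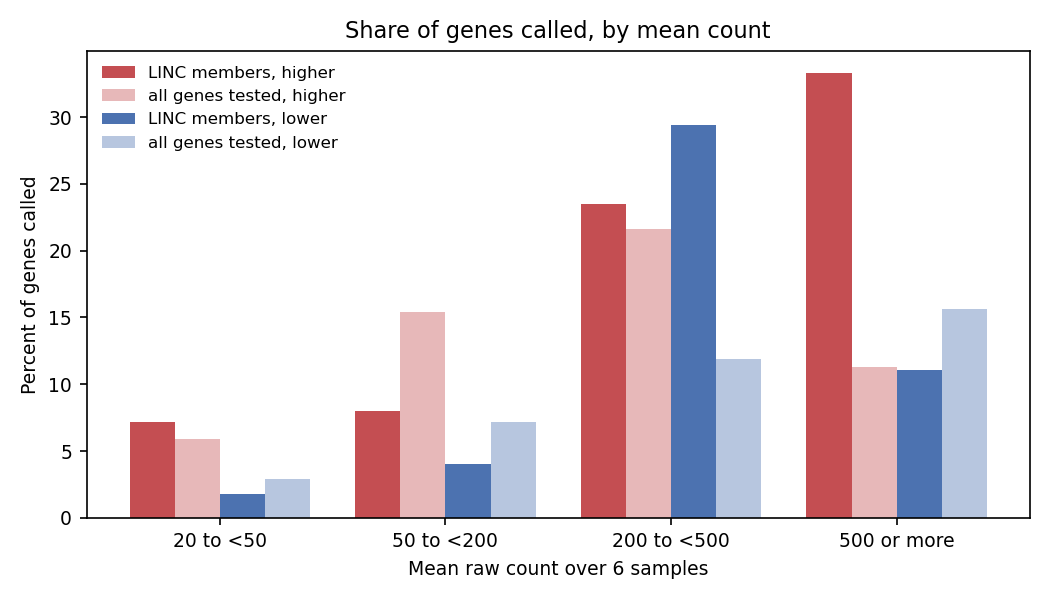
Percent of genes called higher (red) or lower (blue) with TAK1 shRNA in 4 ranges of the mean raw count, for LINC members (full color; 56, 50, 17 and 18 genes) and for all genes tested (pale). Bars start at 0, and 33.3% of the members with 500 counts or more were higher, compared with 11.3% of all genes.

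The strongest member by its test was LINC02458, a spliced RNA from the minus strand of chromosome 12 (chr12:89010681-89309566 in GRCh38). It was at 76.95, 78.7 and 79.4 CPM with scrambled shRNA and at 30.4, 35.7 and 31.35 CPM with TAK1 shRNA. Every TAK1 shRNA sample lay far below every scrambled shRNA sample. The log2 fold change was -1.27 (SE 0.06), with an adjusted p of 1.37e-13, which corresponds to 0.415 times the control level. LINC02458 held 8.03% of the members' summed CPM with scrambled shRNA and 3.34% with TAK1 shRNA. Without it, the sum was 897.2 ± 11.8 CPM with scrambled shRNA and 939.0 ± 32.7 CPM with TAK1 shRNA (SD, n = 3).

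LINC00511, a transcript from chr17:72290091-72640472 on the minus strand that has been studied as an oncogenic RNA in several tumor types, was at 4.01, 4.25 and 4.90 CPM with scrambled shRNA and at 1.61, 1.73 and 1.48 CPM with TAK1 shRNA. The groups were widely separated. Its log2 fold change was -1.45 (SE 0.19, adjusted p 1.39e-06). LINC00294, a single-exon RNA on chromosome 11, was at 7.21, 6.25 and 7.23 CPM with scrambled shRNA and at 4.51, 3.62 and 3.48 CPM with TAK1 shRNA. Its log2 fold change was -0.84 (SE 0.14, adjusted p 6.41e-05), again with no overlap. Its exon overlaps exons of CSTF3 on the opposite strand. Because use of strand in the counting is not given in the sources used here, reads of such overlapping genes cannot be told apart.

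LINC00888, on the plus strand of chromosome 3, was more abundant. It was at 29.3, 29.7 and 29.25 CPM with scrambled shRNA and at 17.2, 16.96 and 18.6 CPM with TAK1 shRNA. The samples within each group were close, and the log2 fold change was -0.74 (SE 0.08, adjusted p 2.74e-08). An exon of this gene also overlaps SNORA63E, a small nucleolar RNA on the same strand. LINC01091, on chromosome 4, was at 14.98, 16.3 and 15.15 CPM with scrambled shRNA and at 10.8, 11.3 and 9.51 CPM with TAK1 shRNA. All of its TAK1 shRNA samples were lower, with a log2 fold change of -0.56 (SE 0.10, adjusted p 7.41e-05).

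The remaining lower members named by rule were less secure. LINC02285 had the largest decrease, at 0.914, 0.984 and 1.2 CPM with scrambled shRNA and at 0.615, 0.0849 and 0.394 CPM with TAK1 shRNA. These are few reads, 18, 3 and 13 counts in the TAK1 shRNA samples, and the lowest sample was far below the others. LINC02285 reached the mean count needed for membership only through the scrambled shRNA samples, where it was higher. Its rank as the largest decrease therefore depends partly on how members were chosen and is given as a description. The log2 fold change of -1.53 (SE 0.46, adjusted p 0.0121) fell to -1.04 (adjusted p 0.0721) without TAK1 shRNA replicate 2, and without scrambled shRNA replicate 3 the adjusted p was 0.0608. Over all alternatives its adjusted p ran from 0.00234 to 0.0721. LINC00909, now named ZNF407-AS1, had 16.6 ± 2.07 CPM with scrambled shRNA and 12.7 ± 1.31 CPM with TAK1 shRNA (SD, n = 3), with a log2 fold change of -0.39 (SE 0.10, adjusted p 0.00468) and an adjusted p of 0.0611 without scrambled shRNA replicate 3, the highest over its alternatives (lowest 0.000781). LINC00882 had 11.5 ± 1.24 CPM and 9.01 ± 0.32 CPM (log2 fold change -0.35, SE 0.11, adjusted p 0.0131), and its adjusted p rose to 0.082 without scrambled shRNA replicate 2 and to 0.0687 without scrambled shRNA replicate 3 (lowest over its alternatives 0.00505).

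The last members called lower, LINC00641 (-0.35, SE 0.11, adjusted p 0.0209) and LINC01515 (-0.33, SE 0.12, adjusted p 0.032), were chosen for mention after their values were seen. Both lost their call without scrambled shRNA replicate 1 (adjusted p 0.0688 and 0.111), scrambled shRNA replicate 3 (0.0712 and 0.0789) or TAK1 shRNA replicate 1 (0.0851 and 0.151). LINC01515 also lost it with library size alone (0.0708) and with DESeq2 (0.0617).

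Among members that were higher, LINC00265 had the smallest adjusted p of the 8 with the largest increases. This RNA from the plus strand of chromosome 7 was at 4.71, 4.76 and 5.06 CPM with scrambled shRNA and at 7.97, 11.1 and 8.36 CPM with TAK1 shRNA. Every TAK1 shRNA sample was higher, and replicate 2 was the highest. The log2 fold change was 0.92 (SE 0.14, adjusted p 9.46e-06). LINC01569, on chromosome 16, was at 2.60, 3.40 and 2.59 CPM with scrambled shRNA and at 4.72, 6.14 and 5.27 CPM with TAK1 shRNA. Its groups did not overlap, with a log2 fold change of 0.91 (SE 0.17, adjusted p 0.00014). LINC02381, whose gene body overlaps that of SMUG1 on the opposite strand of chromosome 12, was at 9.25, 8.45 and 8.40 CPM with scrambled shRNA and at 12.6, 12.8 and 11.5 CPM with TAK1 shRNA. Its increase was smaller and the samples agreed closely (log2 fold change 0.50, SE 0.10, adjusted p 0.000451).

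The largest increases belonged to RNAs with few reads. LINC01355, LINC00954 and LINC02367 reached the mean count needed for membership only through the TAK1 shRNA samples, where they were higher. Their place among the largest increases therefore depends partly on how members were chosen and is given as a description. LINC01355 was at 0.387, 0.508 and 0.486 CPM with scrambled shRNA and at 0.786, 1.58 and 0.969 CPM with TAK1 shRNA, and LINC00954 was at 0.492, 0.349 and 0.486 CPM with scrambled shRNA and at 1.23, 1.22 and 0.697 CPM with TAK1 shRNA. Neither showed overlap between groups, but the TAK1 shRNA samples were widely spread. Their log2 fold changes were 1.27 (SE 0.39, adjusted p 0.0126) and 1.24 (SE 0.39, adjusted p 0.0161). Without TAK1 shRNA replicate 2 the adjusted p was 0.127 for LINC01355 and 0.0653 for LINC00954. Without scrambled shRNA replicate 1 it was 0.0508 for LINC01355, and for LINC00954 it was 0.0832 without scrambled shRNA replicate 2 and 0.0709 without TAK1 shRNA replicate 1. Over all alternatives the lowest adjusted p was 0.00691 for LINC01355 and 0.00888 for LINC00954.

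LINC02593, transcribed on chromosome 1, rose from 0.874 ± 0.244 to 1.77 ± 0.230 CPM (SD, n = 3; log2 fold change 1.01, SE 0.29, adjusted p 0.00879), and its call held in each of the 14 alternative settings. LINC00638 was at 1.37, 1.36 and 1.36 CPM with scrambled shRNA and at 3.28, 2.15 and 2.00 CPM with TAK1 shRNA. The scrambled shRNA samples were nearly equal and replicate 1 of TAK1 shRNA stood highest, with a log2 fold change of 0.85 (SE 0.25, adjusted p 0.00981) and an adjusted p of 0.101 without that replicate (lowest over its alternatives 0.0039). LINC02367 was the weakest of this group, at 0.496 ± 0.138 and 1.02 ± 0.371 CPM, with a log2 fold change of 1.04 (SE 0.39, adjusted p 0.0436). With 13, 12 and 20 counts in the scrambled shRNA samples, it reached the mean count of 20 only through the TAK1 shRNA samples. Its call was lost with DESeq2 (adjusted p 0.0992) and with limma voom (0.0528), and with a replicate block its adjusted p was 0.0512. It was also lost without scrambled shRNA replicate 1 (0.116), 2 (0.1695) or 3 (0.05001) and without TAK1 shRNA replicate 1 (0.0552) or 2 (0.279), while its lowest adjusted p over all alternatives was 0.0276.

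**Figure D3:**
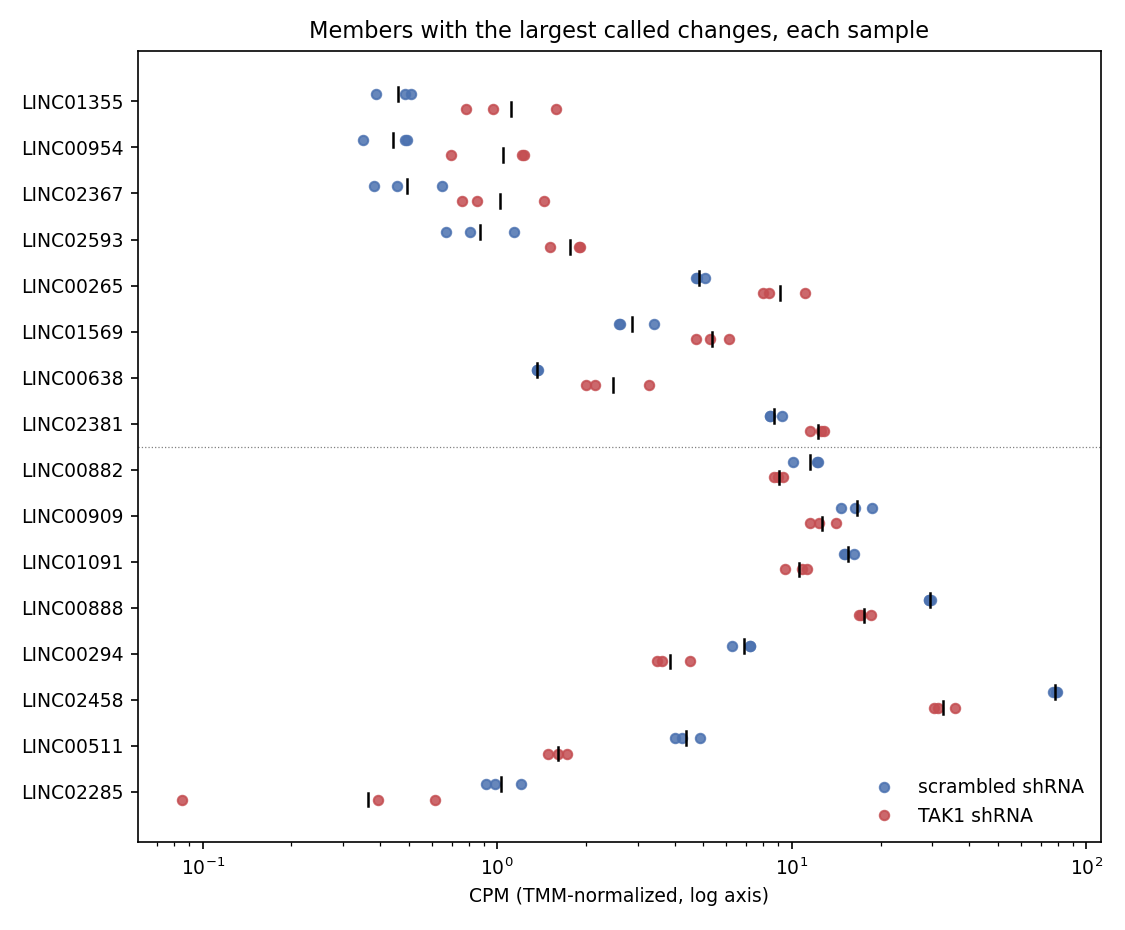
CPM of each sample (log axis) for the 8 members with the largest called increases, above the dotted line, and the 8 with the largest called decreases, below it. Points are single samples of scrambled shRNA (blue) and TAK1 shRNA (red), black ticks are group means, members with overlapping groups were not eligible, and LINC02458 is the most abundant member shown, at 76.95 to 79.4 CPM with scrambled shRNA and 30.4 to 35.7 CPM with TAK1 shRNA.

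Promoters are shown for the members with the largest changes in each direction that have an entry in RefSeq (GRCh38.p14), 250 bases before to 50 bases after the RefSeq start, 5′ to 3′ on the strand of the gene, so that the start regions of members moving together can be read side by side. Capitals mark matches, on either strand, to TGANTCA (the AP-1 motif), GGAATG (the TEAD motif) or CAGCTG (an E-box of myogenic factors). LINC02285 has a match to the AP-1 motif and a match to the E-box. LINC02458, LINC00511, LINC01355, LINC00954 and LINC02367 have no match in the window. The first 3 lines are lower members and the last 3 are higher members. The windows are chr14:101120606-101120905 (plus strand) for LINC02285, chr17:72640423-72640722 (minus strand) for LINC00511, chr12:89019643-89019942 (minus strand) for LINC02458, chr1:23285469-23285768 (minus strand) for LINC01355, chr2:19868604-19868903 (plus strand) for LINC00954 and chr12:9367214-9367513 (plus strand) for LINC02367.
LINC02285: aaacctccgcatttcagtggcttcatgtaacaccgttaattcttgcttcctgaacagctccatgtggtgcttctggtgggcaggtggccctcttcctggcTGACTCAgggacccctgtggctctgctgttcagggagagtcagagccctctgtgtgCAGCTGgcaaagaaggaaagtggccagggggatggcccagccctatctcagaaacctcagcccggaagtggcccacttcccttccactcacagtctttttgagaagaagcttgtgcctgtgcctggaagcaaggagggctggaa
LINC00511: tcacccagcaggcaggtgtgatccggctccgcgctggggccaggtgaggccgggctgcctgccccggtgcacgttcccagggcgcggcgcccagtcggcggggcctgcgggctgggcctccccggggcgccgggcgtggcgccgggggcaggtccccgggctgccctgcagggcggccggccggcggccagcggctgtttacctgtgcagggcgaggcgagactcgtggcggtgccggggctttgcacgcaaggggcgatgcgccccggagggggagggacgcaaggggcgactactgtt
LINC02458: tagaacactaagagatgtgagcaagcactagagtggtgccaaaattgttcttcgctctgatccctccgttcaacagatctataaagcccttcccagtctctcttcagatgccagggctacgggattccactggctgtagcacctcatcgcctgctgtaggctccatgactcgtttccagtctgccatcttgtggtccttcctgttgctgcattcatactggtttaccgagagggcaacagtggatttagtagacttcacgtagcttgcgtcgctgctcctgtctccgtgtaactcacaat
LINC01355: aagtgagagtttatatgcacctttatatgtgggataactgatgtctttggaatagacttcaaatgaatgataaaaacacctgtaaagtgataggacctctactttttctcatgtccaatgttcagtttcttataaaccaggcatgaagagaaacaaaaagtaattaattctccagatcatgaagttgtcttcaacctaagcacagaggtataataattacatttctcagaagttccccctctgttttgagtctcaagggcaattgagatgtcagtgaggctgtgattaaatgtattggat
LINC00954: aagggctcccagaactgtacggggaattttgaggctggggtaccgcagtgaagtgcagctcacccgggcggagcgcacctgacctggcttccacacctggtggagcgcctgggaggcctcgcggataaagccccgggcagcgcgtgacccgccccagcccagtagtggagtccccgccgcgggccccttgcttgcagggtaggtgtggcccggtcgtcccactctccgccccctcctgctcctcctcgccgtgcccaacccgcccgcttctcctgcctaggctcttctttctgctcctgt
LINC02367: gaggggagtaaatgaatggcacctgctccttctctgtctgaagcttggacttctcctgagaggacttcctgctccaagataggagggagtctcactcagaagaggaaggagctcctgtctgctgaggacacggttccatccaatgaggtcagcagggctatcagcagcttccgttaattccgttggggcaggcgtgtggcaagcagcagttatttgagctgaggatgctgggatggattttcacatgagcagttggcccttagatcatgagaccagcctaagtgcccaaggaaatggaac

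These windows differed widely in base composition, from 35.3% G and C in LINC01355 to 78.0% in LINC00511. For LINC02458 the RefSeq start lies 289874 bases from the outermost start in GENCODE 44, for LINC02367 the distance is 20408 bases and for LINC01355 it is 1970 bases, so these printed windows may not be where transcription starts in RD cells. RefSeq held 110 promoters of 102 members, some of which had more than a single entry. The AP-1 motif occurred in 12 of these promoters (10.9%), the TEAD motif in 17 (15.5%) and the E-box in 30 (27.3%). Over all 35116 promoters the shares were 7.71%, 14% and 17.9%. In the promoters of members called higher, 1 of 13 held the AP-1 motif, 0 of 13 the TEAD motif and 3 of 13 the E-box, and among the 10 promoters of 9 members called lower the counts were 1, 1 and 2. A match to these letters does not show that a factor binds.

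The 6 members with the highest mean CPM over all 6 samples were LINC00665, LINC02458, LINC01578, LINC00839, LINC00958 and LINC00963. Together they held from 29.1% to 33.2% of the members' summed CPM. The order differed by group. LINC02458 (78.35 CPM) was above LINC00665 (61.87 CPM) with scrambled shRNA, and with TAK1 shRNA it was at 32.49 CPM, below LINC00205 (41.6 CPM). LINC02458 and LINC00963 were called and the other 4 were not. LINC00665, whose transcripts have been found to encode a small protein, was at 62.8, 59.95 and 62.9 CPM with scrambled shRNA and at 63.95, 67.55 and 61.7 CPM with TAK1 shRNA. Its groups overlapped (log2 fold change 0.06, SE 0.06, adjusted p 0.475). LINC00839 was at 47.2 ± 1.10 and 49.6 ± 6.35 CPM, and LINC00958, studied in bladder cancer, at 46.5 ± 2.20 and 47.8 ± 1.56 CPM (SD, n = 3). Both overlapped between groups, with adjusted p values of 0.471 and 0.665. LINC00963, first described in prostate cancer cells, was at 35.0, 30.9 and 32.3 CPM with scrambled shRNA and at 43.6, 41.1 and 41.65 CPM with TAK1 shRNA. All of its TAK1 shRNA samples were higher (log2 fold change 0.36, SE 0.07, adjusted p 0.000141).

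LINC01578, now named CHASERR, is a long noncoding RNA that restrains its neighbor CHD2, a chromatin remodeler. It was at 54.3, 57.5 and 51.3 CPM with scrambled shRNA and at 45.5, 50.6 and 47.4 CPM with TAK1 shRNA. Every TAK1 shRNA sample lay below every scrambled shRNA sample, yet the log2 fold change of -0.18 (SE 0.06, adjusted p 0.0271) was under the fold threshold. It was the only member that passed the adjusted p and not the fold. Its adjusted p was 0.112 with library size alone, 0.0648 and 0.181 without scrambled shRNA replicates 1 and 2, and 0.0795 and 0.0501 without TAK1 shRNA replicates 1 and 3, and over all alternatives it ran from 0.00737 to 0.181. Its annotated exons overlap exons of CHD2 on the same strand, so its count may hold reads of CHD2.

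Compared per kilobase of annotated exon, the order changed. LINC00674, typed as a transcribed pseudogene with 160 annotated exon bases, had 33.9 CPM per kb, and LINC02544 with 672 exon bases had 27.2 CPM per kb. LINC02458 (12.2 CPM per kb), LINC00888 (11.35 CPM per kb), LINC00958 (8.17 CPM per kb) and LINC01578 (7.90 CPM per kb) followed. These values are means over both groups, and LINC02458 and LINC00888 were lower with TAK1 shRNA, so the order differs between the groups. The median over 136 members with an annotated length was 0.649 CPM per kb, close to that of other long noncoding RNAs with a mean count of at least 20 (0.748 CPM per kb) and below that of protein-coding genes at the same count threshold (5.95 CPM per kb). Annotated exons join all known transcripts of a gene, so this measure may understate the level of members with many transcripts. The exons of LINC00674 overlap those of another gene on the same strand, so its count may hold reads of that gene and its level may be overstated. LINC00674 and LINC02544 were chosen after their values were seen.

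Members with a described role were examined as lists. These lists are not complete and were chosen with earlier results of these data known. LINC00963, which was called higher, is on none of them. Of 17 LINC symbols with a described function, 8 were members. LINC00511 and LINC00294 were called lower and the other 6 were not called, where 11.8% of all genes tested were higher and 11.3% lower. LINC00662 and LINC00667, at 20.6 ± 0.26 and 28.95 ± 1.74 CPM with scrambled shRNA, gave log2 fold changes of 0.12 (SE 0.08) and -0.10 (SE 0.07) and were not called. LINC01138 and LINC00339 had fewer reads, with log2 fold changes of 0.17 (SE 0.22) and 0.45 (SE 0.33), and were not called. Without scrambled shRNA replicate 1 the value for LINC00339 was 0.15, and without scrambled shRNA replicate 2 it was 0.82. Without TAK1 shRNA replicate 2 the value for LINC01138 was -0.04, and without TAK1 shRNA replicate 1 it was 0.29. A further 5 of the listed symbols had rows below the mean count of 20, and 4 had no row of that name. Among the latter, LINC00657 and LINC00152 are older symbols of NORAD and CYTOR, which have rows under those names and so are not members. CYTOR was called lower (log2 fold change -0.40, SE 0.08, adjusted p 0.000177) and NORAD was not called (-0.05, SE 0.04, adjusted p 0.405). Of 8 symbols whose transcripts were later found to encode a small protein, LINC00665 and LINC00467 were members, and neither was called. The other 6 had no row of that name. LINC00467, which encodes a mitochondrial peptide, was at 4.01, 3.87 and 4.48 CPM with scrambled shRNA and at 4.58, 5.41 and 4.82 CPM with TAK1 shRNA. These values did not overlap, but the log2 fold change of 0.26 (SE 0.15) had an adjusted p of 0.19. The muscle list of 5 symbols held 0 members. LINC01405 and LINC00881 had a count of 0 in every sample, and the other symbols had no row of that name. A symbol without a row may be present under another name, so a missing row does not show that an RNA was not expressed.

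The name LINC implies a position between genes, which was checked against GENCODE 44 (GRCh38). Of the 141 members, 136 were matched, 122 by their symbol, 4 where a pseudogene record of the same name was nested within the RNA, and 10 by an older symbol. Among the other 5, 4 shared their symbol with a second row of the counts and 1 had no match. GENCODE types 132 of the matched members as long noncoding RNAs and 4 as transcribed pseudogenes. The gene bodies of 28 members overlap a protein-coding gene. Exons of 25 members overlap an exon of another gene on the same strand and those of 58 members on the opposite strand, which left 68 members without such an overlap on either strand. Some members are therefore not strictly intergenic, and the counts of overlapping members are uncertain. Of the 28 members called, 13 have an exon overlap, 3 of them on the same strand (LINC00863, LINC00888 and LINC02367). Restricting the members to the 68 without overlap gave 10 higher and 5 lower, with a median log2 fold change of 0.13.

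For each member the nearest protein-coding gene was found by the distance between start sites. The median distance was 53070 bases. Among the 28 called members, 24 had a tested neighbor, which was called in the same direction in 6 pairs, in the opposite direction in 2 and not called in 16. For other annotated long noncoding RNAs with a mean count of at least 20 that were called, 52 had a tested neighbor, with 12 in the same direction, 5 opposite and 35 not called. The share of neighbors in the same direction was thus 25% for members and 23.1% for the other RNAs. Among those without exon overlap it was 38.5% for members (5 of 13) and 35.7% for the other RNAs (5 of 14).

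DUSP6, which encodes a phosphatase that inactivates ERK, is the nearest protein-coding gene to LINC02458. The outermost GENCODE start of LINC02458 lies 42935 bases from that of DUSP6, and its RefSeq start 332809 bases away. DUSP6 was at 552.2, 550.7 and 539.0 CPM with scrambled shRNA and at 262.9, 262.1 and 258.5 CPM with TAK1 shRNA. All TAK1 shRNA samples were lower by a similar amount, with a log2 fold change of -1.07 (SE 0.04, adjusted p 1.31e-15). Of 6 other genes tested within 500000 bases of the LINC02458 start, DUSP6 and POC1B (log2 fold change -0.40, SE 0.08, adjusted p 0.000416) were called lower and the rest were not called. POC1B was chosen after its values were seen.

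SPRY1, an inhibitor of receptor tyrosine kinase signaling, starts 142231 bases from LINC01091. It was at 151.7, 148.5 and 146.6 CPM with scrambled shRNA and at 129.2, 119.2 and 113.5 CPM with TAK1 shRNA. Its TAK1 shRNA samples were all lower, with a log2 fold change of -0.30 (SE 0.05, adjusted p 4.67e-05), and it was the only other gene tested within 500000 bases of the LINC01091 start.

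Neighbors that were higher together with a member were POFUT2, SRL, ZBTB42 and NUTM2D. LINC00205 and POFUT2, which encodes a protein O-fucosyltransferase, start 137 bases apart in opposite directions. LINC00205 was at 28.5, 30.4 and 31.9 CPM with scrambled shRNA and at 42.4, 40.1 and 42.3 CPM with TAK1 shRNA, without overlap. The log2 fold changes were 0.46 (SE 0.07, adjusted p 7.57e-06) for LINC00205 and 0.28 (SE 0.05, adjusted p 0.000335) for POFUT2. SRL, which encodes the calcium-binding protein sarcalumenin of the sarcoplasmic reticulum, starts 11767 bases from LINC01569 and had a log2 fold change of 0.26 (SE 0.10, adjusted p 0.0427). Its call was weak and ended with DESeq2 (adjusted p 0.103), with limma voom (0.0572), without the filter on low counts (0.0729) and when any sample but TAK1 shRNA replicate 2 was left out (0.213 without TAK1 shRNA replicate 3, 0.125, 0.0638 and 0.121 without scrambled shRNA replicates 1, 2 and 3, and 0.0778 without TAK1 shRNA replicate 1). ZBTB42 starts 20605 bases from LINC00638 (log2 fold change 0.29, SE 0.10, adjusted p 0.0258), and its call ended with DESeq2 (adjusted p 0.0688), without the filter on low counts (0.0532) and without scrambled shRNA replicate 2 (0.114), scrambled shRNA replicate 3 (0.0805) or TAK1 shRNA replicate 3 (0.0955). NUTM2D (0.56, SE 0.15, adjusted p 0.00537) shares exon sequence on the same strand with LINC00863 (0.43, SE 0.11, adjusted p 0.00318), so these values are not independent measurements, and without TAK1 shRNA replicate 2 the adjusted p of NUTM2D was 0.0691. LINC00205, NUTM2D, POFUT2 and LINC00863 are described here for being called together and were chosen after their values were seen.

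The opposite direction was seen for LINC00265 and LINC00511. RALA, which encodes a small GTPase, starts 109865 bases from LINC00265. It was at 71.8, 67.2 and 73.3 CPM with scrambled shRNA and at 54.2, 56.6 and 57.5 CPM with TAK1 shRNA. RALA was lower in every TAK1 shRNA sample (log2 fold change -0.33, SE 0.06, adjusted p 5.28e-05), while LINC00265 was higher. SLC39A11, which encodes a zinc transporter and starts 452240 bases from LINC00511, was higher (log2 fold change 0.34, SE 0.11, adjusted p 0.0136), while LINC00511 was lower. The call of SLC39A11 ended without scrambled shRNA replicate 3 (adjusted p 0.0911) or TAK1 shRNA replicate 3 (0.0505).

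**Figure D4:**
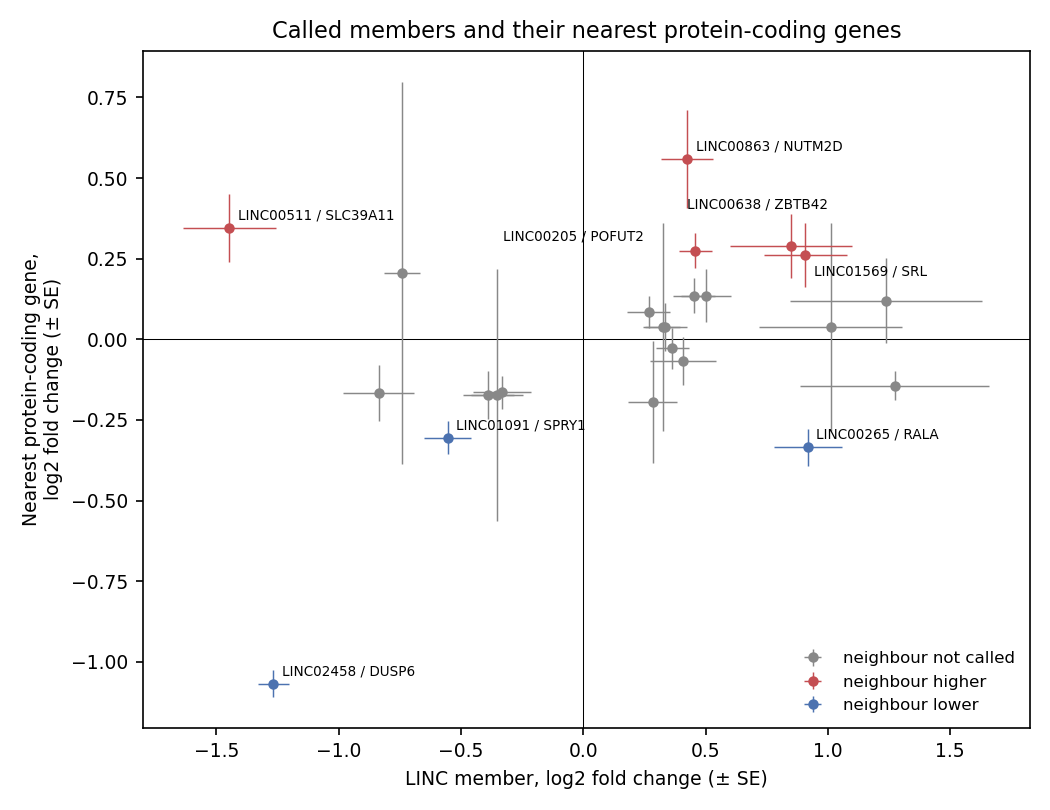
Log2 fold change of the nearest protein-coding gene against that of the member, for the 24 called members with a tested neighbor, with SE bars and labels on the 8 pairs with a called neighbor. Colors give the call of the neighbor (red higher, blue lower, grey not called), LINC02458 and DUSP6 lie together at the lower left, and LINC00265 with RALA and LINC00511 with SLC39A11 lie in the quadrants of opposite sign.

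**Figure D5:**
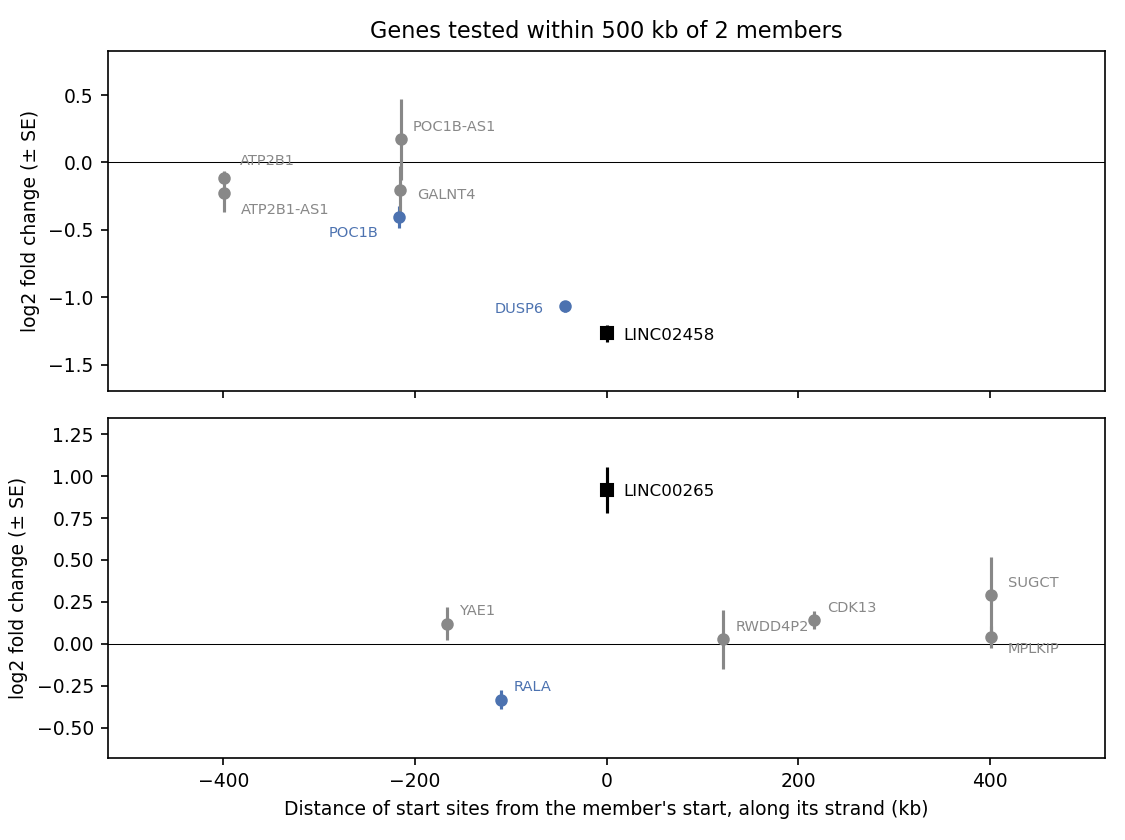
Log2 fold change with SE of genes tested within 500 kb of LINC02458 (top) and LINC00265 (bottom), plotted by the distance between start sites along the strand of the member (kb). Squares are the members and blue points are genes called lower, and beside LINC02458 only DUSP6 and POC1B were called, and beside LINC00265 only RALA.

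Of the 13 members that start head to head with a protein-coding gene, on opposite strands with starts within 1000 bases, 4 were called (30.8%), all higher. LINC00909, called lower, starts 1015 bases from ZNF407 and so lay just outside this distance. Among 179 other annotated long noncoding RNAs with a mean count of at least 20 that start head to head in this way, 24 were called (13.4%), 20 higher and 4 lower. Of all genes tested, 11.8% were called higher and 11.3% lower. The set of 13 members is small, and its share was not tested against either. Of the 24 other RNAs called, 23 had a tested partner, which was called in the same direction in 3 pairs and in the opposite direction in 4. The members' partners were POFUT2, which was also higher, and SLX9, ATP5PO and RNF32, the partners of LINC01547, LINC00649 and LINC01006, which were not called. LINC01547 lost its call without scrambled shRNA replicate 2 (adjusted p 0.106) or TAK1 shRNA replicate 1 (0.091) and with DESeq2 (0.0612), and LINC00649 without TAK1 shRNA replicate 3 (0.0761). LINC01006 lost it without scrambled shRNA replicate 2 (0.0678) or 3 (0.145) and without TAK1 shRNA replicate 1 (0.0859) or 2 (0.0938), with DESeq2 (0.0742) and without the filter on low counts (0.0509). PRDM16, which encodes a transcription factor that steers cells between muscle and brown fat, was higher (log2 fold change 0.86, SE 0.13, adjusted p 1.27e-05), whereas its head-to-head partner LINC00982 had a log2 fold change of 0.18 and an adjusted p of 0.732. CAPN15 was higher as well (0.36, SE 0.06, adjusted p 3.56e-05), and its partner LINC00235 had a larger log2 fold change of 0.55 with a wider error (SE 0.23, adjusted p 0.0619). The genes of these pairs were chosen after their values were seen.

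The other 113 members were not called. Their log2 fold changes ranged up to 0.93 in size, and in 15 of them the value was at least 0.50 in size, with mean counts from 20.5 to 64.7. For these RNAs a change of that size did not pass the test at this depth. Of the 113 members, 19 had groups that did not overlap. Among them were LINC01719, LINC00898 and LINC00235, in which every TAK1 shRNA sample lay above every scrambled shRNA sample. Of all 113 members not called, LINC00893, whose groups overlapped, had the highest log2 fold change (0.93, SE 0.41, adjusted p 0.0816). LINC00920 had the lowest (-0.63, SE 0.26, adjusted p 0.0669). The members named in this paragraph were chosen after their values were seen.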

How the data were processed

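For poly(A)-enriched RNA read on an Illumina instrument, the authors called bases with CASAVA, removed reads with adaptor or of low quality, and used STAR with GRCh38. They deposited raw counts, not normalized, for each gene. The counter, annotation release and use of strand are not given in the sources used here. Groups were taken from the sample labels, and 0 columns were left out. From the deposited counts, edgeR 4.0.16 in R 4.3.3 gave CPM, log2 fold changes and tests (filterByExpr, trimmed mean of M-values, quasi-likelihood test, Benjamini-Hochberg adjustment over all genes tested), without a replicate term. The SE is the size of the log2 fold change over the root of its F statistic. A call needed an adjusted p below 0.05 with a log2 fold change of 0.25 or more in size. The pipeline was tested on simulated data.

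Members and lists were chosen with earlier results of these data known. Genes named by rule were the 8 highest and 8 lowest called members without overlap between groups, the 6 most abundant, those next to the threshold, listed members, the nearest protein-coding genes of the first 16 and MAP3K7. Alternatives were 3 normalizations, DESeq2 1.42.0, limma 3.58.1 (voom), 2 filters, a replicate block, each sample left out, and other thresholds and memberships. Positions came from GENCODE 44 and promoters from RefSeq GRCh38.p14.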

Additional observations from a re-analysis of the deposited data

How the results depend on the processing

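The number of members called higher was 18 and ranged from 14 (DESeq2) to 21 (library size alone) over other normalizations, tests and filters, and the number called lower was 10 and ranged from 9 to 11. Without a fold threshold 18 members were higher and 11 lower, and with a threshold of 0.5 there were 8 higher and 6 lower, since fewer changes are that large. Members without exon overlap, a smaller set of 68, gave 10 higher and 5 lower. Leaving out each sample in turn gave 12 to 16 higher and 6 to 11 lower, the 6 without scrambled shRNA replicate 3, and a median log2 fold change from 0.04305 (without TAK1 shRNA replicate 2) to 0.12. The cause was not tested, beyond fewer samples in each fit.

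In all 14 alternative fits, 9 of the 18 higher and 5 of the 10 lower members kept their call, the latter being LINC02458, LINC00511, LINC00888, LINC00294 and LINC01091. Of the named members that were not called, LINC00839 and LINC01138 changed sign without TAK1 shRNA replicate 2. Over the left-out samples the log2 fold change ran from -0.03149 to 0.15 for LINC00839 and from -0.04135 to 0.29 for LINC01138.

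Replicate numbers were shared between groups, but samples with the same number did not deviate together, with correlations across genes, which are not independent, from 0.0165 to 0.037, and scrambled shRNA replicate 3 correlated more with TAK1 shRNA replicate 2 (0.019) than with its own number. With a replicate block, 18 members were higher and 11 lower, with a median of 0.11.

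Members with few counts had a large SE. Unstated strand use and exon overlaps limit members that share exons with other genes.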

Other observations

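Of 28 named long noncoding RNAs outside the LINC symbols, 25 were tested, and 5 were called higher and 3 lower with TAK1 shRNA, where 11.8% of all genes tested were higher and 11.3% lower. MIR100HG, the host transcript of a microRNA cluster, was at 16.5, 18.03 and 20.8 CPM with scrambled shRNA and at 10.3, 10.25 and 9.24 CPM with TAK1 shRNA. All TAK1 shRNA samples were lower, with a log2 fold change of -0.89 (SE 0.10, adjusted p 1.40e-07). MIR22HG (-0.60, SE 0.13, adjusted p 0.000861) and CYTOR (-0.40, SE 0.08, adjusted p 0.000177) were lower as well. KCNQ1OT1, an imprinted antisense transcript, rose from 7.23 ± 0.74 to 11.2 ± 1.08 CPM (SD, n = 3; log2 fold change 0.64, SE 0.12, adjusted p 0.000114), and MEG3, another imprinted transcript, from 82.4 ± 5.57 to 112.1 ± 22.9 CPM (0.44, SE 0.09, adjusted p 0.000303). MIR503HG, EPB41L4A-AS1 and CRNDE were the other RNAs called higher. MALAT1 and NEAT1, abundant nuclear RNAs, were not called, with log2 fold changes of 0.05 (SE 0.09) and 0.06 (SE 0.07).

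Below the mean count of 20, 51 of 1745 LINC rows passed the filter on low counts. Their median mean count was 14 and their median SE of the log2 fold change 0.48.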
